A study of Mus musculus with 18 samples.

Results

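Livers of Atf4-/- mice were compared with livers of wild type (WT) mice under phosphate buffered saline (PBS), the condition without drug, to describe what loss of ATF4 does to the resting hepatic transcriptome. A gene was a member of the comparison when Cuffdiff gave both groups the status OK and its FPKM (fragments scaled to transcript length and to library size) was over 3 in either group. Of 37303 genes in the table, 9130 met this rule. Genes of the striated muscle and lung epithelium lists were set aside, 71 and 5 of them, which left 9054 members, 8539 of them protein coding.

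The study profiled poly-A RNA of 18 livers in 6 groups of 3 mice: WT, Gcn2-/- and Atf4-/- mice that received asparaginase (ASNase) or PBS. ASNase, an anti-leukemic enzyme that depletes blood asparagine and glutamine, was given at 3 IU per gram of body weight on 8 consecutive days, and PBS on the same schedule. By the labels livers were taken 7.5 h after the last injection from mice of 8 to 16 weeks, while the growth protocol gives an upper age of 12 weeks. All strains were on the C57BL/6J background, and the Atf4-/- mice carried the Atf4tm1Tow allele in every cell, so that a difference in liver may also arise from other tissues. The WT PBS group held 1 male and 2 females and the Atf4-/- PBS group 2 males and 1 female. The WT and Atf4-/- ASNase groups, which share no mouse with the PBS groups, each held 2 males and 1 female. Gcn2-/- PBS livers (1 male, 2 females) were set beside the others as values only, because they share the WT PBS control.

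ATF4 is a basic leucine zipper transcription factor whose mRNA is translated preferentially when eIF2 is phosphorylated. The eIF2 kinases sense amino acid scarcity (GCN2), endoplasmic reticulum (ER) stress (PERK), double stranded RNA (PKR) and heme deficiency (HRI), and their common output is termed the integrated stress response. With C/EBP partners, ATF4 binds the C/EBP-ATF response element (CARE) of genes for amino acid synthesis, amino acid transport, tRNA charging and the control of eIF2 itself.

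The table holds 1 pooled FPKM per gene and group, estimated by Cuffdiff from the 3 libraries together, with a lower and an upper bound. Values are therefore given as FPKM with the Cuffdiff interval in parentheses, with no SD and no p-value, and no replicate spread could be set against any difference. Read depth is not part of these values. At the median, the bounds stood 51.8% of the FPKM away from it in WT PBS and 52.3% in Atf4-/- PBS livers, so that only large differences exceeded the error. Differences are on the log2(FPKM + 0.1) scale, Atf4-/- minus WT, which understates the change of low genes. A member was called when both values were above 0, the absolute log2 difference was over 1.5 (2.83-fold) and the intervals did not overlap. The words rose and fell are used of called genes alone.

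The resting liver transcriptome was largely alike in both genotypes, and a small set of genes stood far apart from it. Across the 9054 members the median log2 difference was 0.01, 50.9% had the higher value in Atf4-/- livers, the median absolute difference was 0.18 and its 90th percentile 0.56. The intervals were separate at any fold for 68 members (0.751%). Called members numbered 53 (0.585%), of which 32 were higher (0.353%) and 21 lower (0.232%) in Atf4-/- livers. Among the called members, 44 had a gene symbol of their own, 25 higher and 19 lower, and the other 9 were pseudogenes, small RNAs or unnamed loci. A further 63 members were over the fold limit with overlapping intervals.

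**Figure D1:**
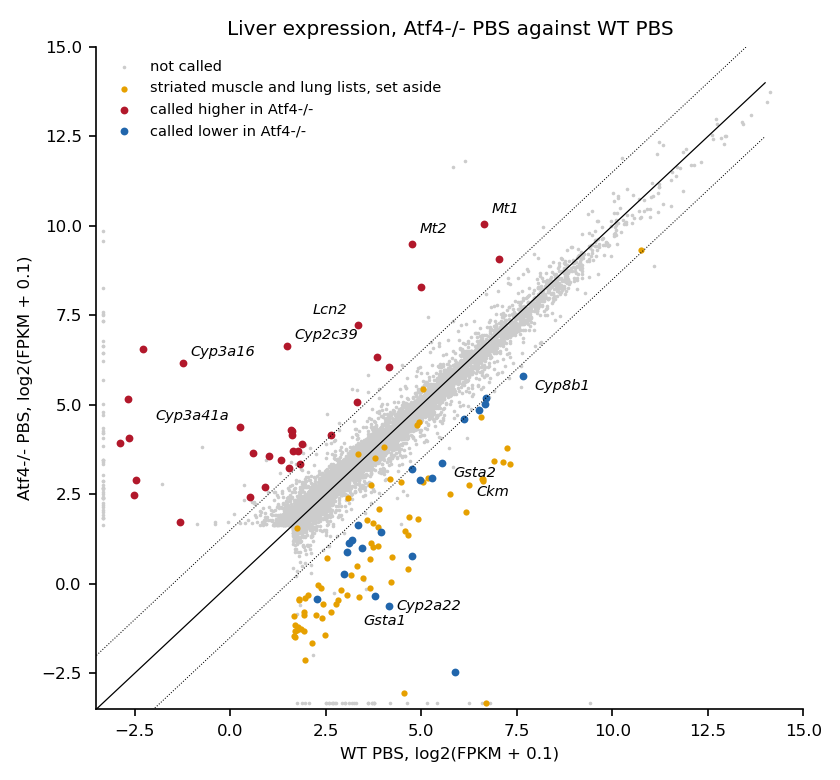
Each point is an eligible gene, with log2(FPKM + 0.1) in WT PBS livers on the x axis and in Atf4-/- PBS livers on the y axis. The solid line marks equal values, the dotted lines a log2 difference of 1.5, and points in a row along the left or lower edge are listed at 0 in that group; the 32 genes called higher reach from low WT values (Cyp3a16) to abundant ones (Mt1), while the set-aside genes lie almost entirely on the lower side.

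Reads assigned to the Atf4 gene were fewer in Atf4-/- livers but not absent. The gene (chr15:80255184-80257541 in mm10, the plus strand) was at 50.4 FPKM (29.7 to 71.1) in WT PBS and 32.3 (19.1 to 45.5) in Atf4-/- PBS livers, a log2 difference of -0.64 with overlapping intervals. After ASNase the values were 63.1 and 29.3, a difference of -1.11. The gene total thus was lower in both Atf4-/- groups without being called, and reads from an altered allele cannot be told apart from intact transcript in a gene total, so that these values do not show whether intact Atf4 mRNA was present.

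Genes that ATF4 is known to activate mostly had lower values in Atf4-/- livers at rest, by amounts within their error. Of 38 targets of ATF4 and the integrated stress response, 19 were eligible, 14 with a lower and 5 with a higher value, and 0 were called (median log2 difference -0.22, against 0.01 over all members). Atf5, a CARE-binding relative of ATF4, was at 159.8 FPKM (84.9 to 235) in WT and 80.0 (42.7 to 117) in Atf4-/- livers, a difference of -1.0. Trib3, a pseudokinase that restrains ATF4 signalling, was at 5.46 (2.80 to 8.13) and 3.63 (1.72 to 5.54), and Ddit3, which encodes CHOP, at 12.8 (0 to 28.8) and 8.87 (0 to 18.3). Cth, the transsulfuration enzyme that makes cysteine, was at 349 (141 to 557) and 240.5 (110.0 to 371), a difference of -0.54. Chac1, a glutathione-degrading enzyme, stood on the other side, at 1.81 (0.602 to 3.01) and 3.06 (1.29 to 4.82).

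Several textbook targets were too low at rest to be eligible. Asns, asparagine synthetase, was at 2.5 FPKM (0 to 6.93) in WT and 0.591 (0 to 1.70) in Atf4-/- livers. Psat1 and Phgdh, enzymes of serine synthesis, were at 0.774 and 0.401 in WT and at 0.111 and 0.129 in Atf4-/- livers. Fgf21, a hepatokine of the stress response, was at 2.14 (0.434 to 3.85) and 1.17 (0.126 to 2.22). These levels were too near the error of the estimates for a difference to be detectable.

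The aminoacyl-tRNA synthetases, which charge tRNAs with their amino acids, showed the same lean more evenly. All 20 cytosolic enzymes were eligible, and 19 had the lower value in Atf4-/- livers (median -0.35, against 49.1% lower values among all members). The difference was largest for Cars, the cysteinyl-tRNA synthetase, at 20.4 FPKM (5.30 to 35.4) and 5.16 (0.669 to 9.66), or -1.96 on the log2 scale, with overlapping intervals. Mars, for methionine, was at 35.4 (4.05 to 66.7) and 15.7 (3.67 to 27.7), Tars, for threonine, at 42.9 (25 to 60.8) and 26.3 (15.5 to 37.0), and Nars, for asparagine, at 39.3 (22.8 to 55.7) and 24.4 (14.5 to 34.4). Only Qars, for glutamine, had a higher value, 27.2 and 31.9. In Gcn2-/- PBS livers 13 of the 20 were below WT, with a median difference of -0.06.

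The CARE core, spelled TGATGNAA and searched on both strands, was used to see which of these genes carry the letters near their start. In RefSeq promoters on GRCm38.p6, from 250 bases before to 50 after the transcript start, it occurs in 1219 of 27025 genes (4.51%). It occurs in 12 of the 33 targets with a promoter in the table (36.4%) and in 5 of 13 synthetases (38.5%), and in 0 of the 35 called genes with a promoter and 0 of 20 ER chaperones. The windows of 5 such genes are given 5′ to 3′ on the strand of the gene, with the core or its reverse complement in capitals, because they show the element in genes of the lists described above. They lie at chr6:7693215-7693242 (minus strand), chr2:152344029-152344056 (minus), chr2:119351039-119351066 (plus), chr6:55037961-55037988 (plus) and chr15:11399656-11399683 (minus). A match is a description of letters and not evidence of binding.
Asns: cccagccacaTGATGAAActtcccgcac
Trib3: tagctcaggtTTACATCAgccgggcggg
Chac1: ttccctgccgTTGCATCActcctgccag
Gars: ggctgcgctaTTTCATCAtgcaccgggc
Tars: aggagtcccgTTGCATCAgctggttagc

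ER chaperones and other genes of the unfolded protein response had lower values as well, again with 0 called. Of 24 eligible members, 19 were lower in Atf4-/- livers (median -0.21). Lower values also prevailed among all 824 protein-coding members with a mean of 100 FPKM or more (median -0.14, 30.3% higher values). The part of expression level in the ER list was not tested. Hspa5, the ER chaperone BiP, was at 341 FPKM (134 to 549) in WT and 190.6 (81.6 to 299.7) in Atf4-/- livers, and Manf, a secreted ER stress factor, at 146 (57.4 to 234) and 67.7 (12.1 to 123). Calr, calreticulin, was at 402 (154 to 650) and 285 (118 to 451), and Creld2 at 29.3 (16.8 to 41.7) and 15 (8.57 to 21.5). Derl3, of the ER degradation machinery, was at 1.20 (0.278 to 2.13) and 3.12 (1.09 to 5.15). Xbp1, which encodes a transcription factor of the unfolded protein response, was at 95.2 (51.5 to 139) and 101 (54.2 to 147).

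Under ASNase the medians of these lists lay on the other side of zero. In the mice given ASNase, 17 of 20 synthetases and 23 of 24 ER genes had the higher value in Atf4-/- livers, with median differences of 0.52 and 0.98. The ATF4 targets were more evenly split, 11 higher and 8 lower (0.37), and 4 of the ER genes and 3 of the 19 ATF4 targets were called higher (2.57% of 9632 genes eligible after ASNase were). Hspa5 was at 211 and 691, Trib3 at 19.5 and 149.6, Ddit3 at 18.7 and 73.1, and Xbp1 at 94.6 and 359.6 in WT and Atf4-/- livers. Whether the difference between the conditions exceeds the error of the lists was not tested. The remaining stress genes added 0 calls: 14 of 16 cytosolic heat shock chaperones (median -0.33), 12 of 16 eIF2 kinases and eIF2 regulators (-0.12) and 13 of 19 NRF2 targets and antioxidant enzymes (-0.24) had lower values in Atf4-/- PBS livers. Nqo1, a quinone reductase and NRF2 target, was at 6.34 (3.25 to 9.42) and 2.94 (1.22 to 4.67). The heat shock chaperones were also lower in Gcn2-/- PBS than in WT PBS livers, 14 of 16 with a median of -0.36. The part of expression level in the heat shock and NRF2 lists was not tested either.

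**Figure D2:**
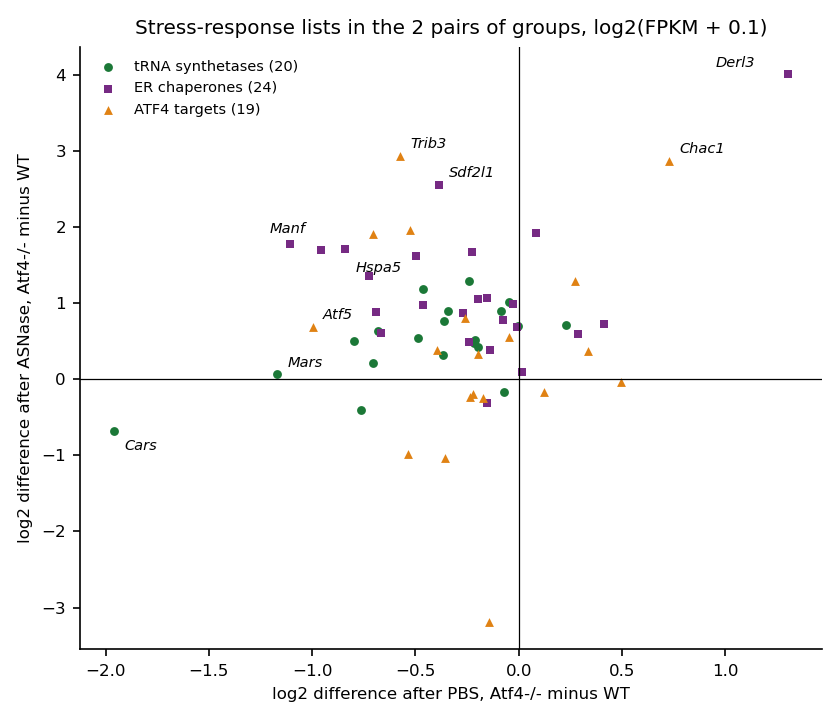
Each point is a gene, with its log2 difference between Atf4-/- and WT livers after PBS on the x axis and after ASNase on the y axis, for 20 tRNA synthetases, 24 ER chaperones and 19 ATF4 targets. Most points fall in the upper left, lower in Atf4-/- livers at rest and higher after ASNase; the groups on the 2 axes share no mice.

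The clearest differences in hepatocyte genes were in cytochrome P450 enzymes of the Cyp3a and Cyp2 families, monooxygenases that oxidize drugs, steroids and fatty acids. In the Cyp3a family, 4 of 7 eligible genes were called, 3 higher and 1 lower (0.353% and 0.232% of all members were). Cyp3a16 had the largest difference of the called genes with their own symbol, at 0.322 FPKM (0.0101 to 0.633) in WT and 72.2 (37.8 to 107) in Atf4-/- livers, a rise of 7.42 on the log2 scale. Cyp3a41a rose from 1.09 (0.121 to 2.07) to 20.8 (7.62 to 34.0), or 4.13, and Cyp3a44 from 2.96 (1.22 to 4.70) to 19.3 (5.93 to 32.7), or 2.67. Cyp3a59 fell from 38.6 (22.2 to 55.1) to 7.71 (3.61 to 11.8), a difference of -2.31. Cyp3a11, the most abundant family member in liver, was at 2995 (129 to 5860) and 1497 (325 to 2669) with overlapping intervals, and Cyp3a25 at 331 (135 to 527) and 471 (168 to 774).

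These genes lie side by side on chromosome 5. In mm10 the order is Cyp3a16 (chr5:145436309-145469723), Cyp3a41b, Cyp3a41a (chr5:145694049-145720136), Cyp3a44 (chr5:145773983-145805874), Cyp3a11, Cyp3a25 and Cyp3a59 (chr5:146079257-146113287), all on the minus strand but the last. The neighbouring genes from Cyp3a16 to Cyp3a44 were higher in Atf4-/- livers, among them Cyp3a41b, which was not eligible at 0.00568 FPKM (0 to 0.0424) and 2.52 (0.606 to 4.43). Of the genes that follow, Cyp3a11 and Cyp3a59 had lower values and Cyp3a25 a higher value within its error. Gcn2-/- PBS livers were below the WT values, with Cyp3a16 at 0.20, Cyp3a41a at 0.243 and Cyp3a44 at 2.03. In the ASNase mice Cyp3a16 was at 0.464 (0.0765 to 0.852) in WT and 12.2 (4.79 to 19.6) in Atf4-/- livers, and Cyp3a41a at 0.669 (0.0136 to 1.32) and 11.9 (5.51 to 18.4), both called again. Cyp3a44, at 3.10 (1.17 to 5.03) and 13.2 (4.06 to 22.3), was not called after ASNase.

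**Figure D3:**
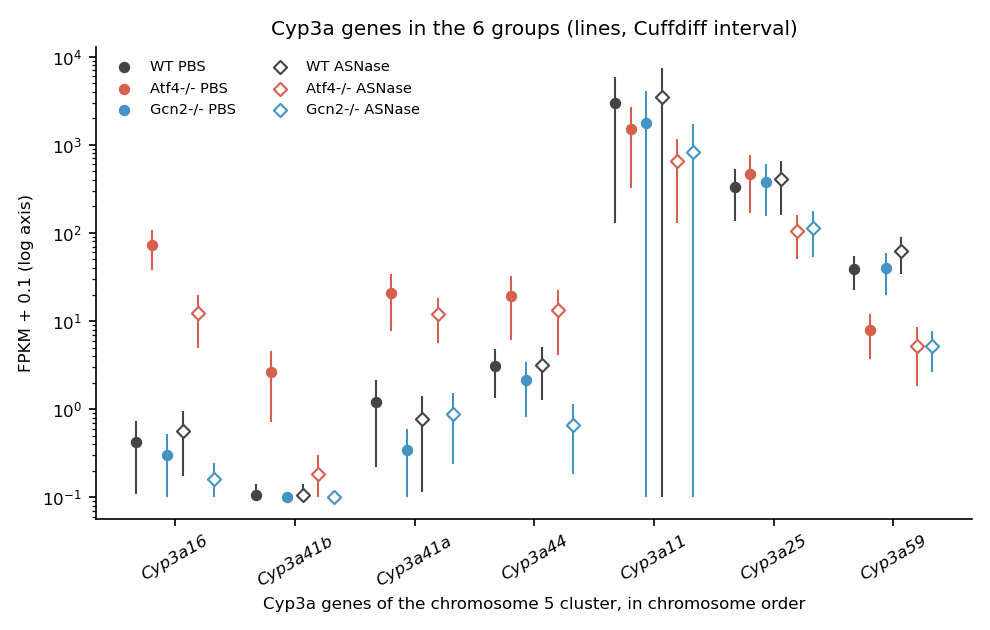
FPKM + 0.1 on a log axis for 7 Cyp3a genes in chromosome order, in the 6 groups, with the Cuffdiff interval as a line. The 4 genes from Cyp3a16 to Cyp3a44 are higher in Atf4-/- PBS livers than in WT and Gcn2-/- PBS livers, and Cyp3a16 and Cyp3a41a are clearly so after ASNase, whereas Cyp3a59 is lower in Atf4-/- livers in both conditions.

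Cyp3a16, Cyp3a41a and Cyp3a44 are close paralogs, so that reads could have been divided between them in the estimation and each value carries that uncertainty. Their upstream sequences show how close they are. The 250 bases before the RefSeq start, from GRCm38.p6, are printed 5′ to 3′ on the minus strand, with bases that differ from Cyp3a16 in their alignment in capitals, and Cyp3a11 is shown as the abundant neighbour that did not move with them. The windows are chr5:145469724-145469973, chr5:145720137-145720386, chr5:145805875-145806124 and chr5:145879855-145880104, and they were compared after the expression values had been seen.
Cyp3a16: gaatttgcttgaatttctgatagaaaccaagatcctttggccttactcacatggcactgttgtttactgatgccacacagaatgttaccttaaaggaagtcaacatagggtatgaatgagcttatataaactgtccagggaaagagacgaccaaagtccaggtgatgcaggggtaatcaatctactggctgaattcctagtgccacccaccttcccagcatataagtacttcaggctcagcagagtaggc
Cyp3a41a: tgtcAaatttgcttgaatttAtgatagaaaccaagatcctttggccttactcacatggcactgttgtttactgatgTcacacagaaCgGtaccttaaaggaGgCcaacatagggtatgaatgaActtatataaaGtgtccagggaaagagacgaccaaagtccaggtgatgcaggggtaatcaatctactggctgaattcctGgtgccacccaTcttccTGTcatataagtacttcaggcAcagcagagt
Cyp3a44: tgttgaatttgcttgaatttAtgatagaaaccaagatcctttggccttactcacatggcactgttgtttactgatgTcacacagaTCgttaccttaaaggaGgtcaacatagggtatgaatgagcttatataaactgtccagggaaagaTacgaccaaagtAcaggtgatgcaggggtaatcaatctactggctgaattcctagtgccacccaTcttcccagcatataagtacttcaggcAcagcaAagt
Cyp3a11: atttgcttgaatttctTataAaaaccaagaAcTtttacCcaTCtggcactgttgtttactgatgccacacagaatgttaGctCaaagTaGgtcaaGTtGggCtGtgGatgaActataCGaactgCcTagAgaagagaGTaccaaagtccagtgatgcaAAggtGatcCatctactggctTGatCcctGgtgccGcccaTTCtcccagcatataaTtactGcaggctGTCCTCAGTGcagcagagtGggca

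In these windows Cyp3a16 matched Cyp3a44 at 95.9% and Cyp3a41a at 93.9% of aligned bases, and Cyp3a11 at 83.3%. Bases in capitals, those opposite a gap included, numbered 10 in Cyp3a44, 15 in Cyp3a41a and 50 in Cyp3a11.

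In the Cyp2 family 4 genes were called, in both directions. Of 32 eligible genes, 1 was called higher and 3 lower (0.353% and 0.232% of all members were), and the family median was -0.10. Cyp2c39, an arachidonic and retinoic acid hydroxylase on chromosome 19, rose from 2.68 FPKM (1.09 to 4.27) to 100.2 (33.7 to 167), or 5.17 on the log2 scale, and was at 2.68 in Gcn2-/- PBS livers. Cyp2a22 fell from 17.7 (8.32 to 27.0) to 0.550 (0.139 to 0.961), the largest fall among called protein-coding genes at -4.77. Cyp2b10, the classical target of the constitutive androstane receptor, fell from 15.3 (7.33 to 23.3) to 2.63 (0.867 to 4.39), and Cyp2c55 from 8.52 (4.70 to 12.3) to 2.11 (0.822 to 3.39). The abundant Cyp2e1, of ethanol oxidation, was at 3927 (183 to 7671) and 4522 (0 to 9621), and Cyp2c29 at 768 (283 to 1253) and 773 (291 to 1254). After ASNase Cyp2c39 was again higher in Atf4-/- livers (3.87 and 53, called) and Cyp2c55 again lower (10.5 and 0.315, called), whereas Cyp2b10 was at 16.6 (8.28 to 25) and 49.1 (23 to 75.2) and Cyp2a22 at 15.9 (6.28 to 25.5) and 7.44 (3.02 to 11.9), neither of them called. Of the receptor mRNAs at rest, Nr1i3, the constitutive androstane receptor, was at 92.3 and 122, Nr1i2 at 26.5 and 29.2 and Rxra at 85.6 and 96.4 FPKM, none of them called.

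Glutathione transferases, which conjugate electrophiles to glutathione, were lower as a family. Of 20 eligible genes, 19 had the lower value in Atf4-/- livers, 2 of them called (0.232% of all members were called lower), and the median of -0.62 was the lowest among the lists of enzymes described here. Gsta1 (chr9:78230656-78242684) fell from 13.7 FPKM (6.19 to 21.2) to 0.687 (0 to 1.44), or -4.13, and its neighbour Gsta2 (chr9:78331018-78355788) from 46.8 (25.9 to 67.7) to 10.4 (4.74 to 16.0), or -2.16. Gstm3 was at 79.4 (27.2 to 132) and 29.3 (8.63 to 50), Gstm2 at 98.8 (57.7 to 139.9) and 45.6 (26.0 to 65.2), and the abundant Gsta3 at 1680.1 (578 to 2782) and 1183 (475 to 1891), all with overlapping intervals. Gstp1, on the other side, was at 796 (169 to 1423) and 1123 (381 to 1865). In Gcn2-/- PBS livers Gsta1 and Gsta2 were at 21.4 and 65.9, above WT, and the family median was -0.17. After ASNase 13 of the 20 were called lower in Atf4-/- livers (5.17% of 9632 eligible genes were), with a median of -2.44. Of the 20 genes, 15 have a longest transcript under 1500 nt, a class in which lower values prevailed over all members, and the part of length in this result was not tested.

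Other detoxification lists held 0 called genes. Carboxylesterases, which hydrolyse esters and drugs, had 10 of 12 lower values (median -0.30), with Ces2e at 112 (61.6 to 162) and 53.8 (31.0 to 76.6). The Cyp1 and Cyp4 families had 7 of 12 lower values (-0.24), with Cyp4a10, a fatty acid hydroxylase under PPARα, at 283 (136 to 429.5) and 107 (50.6 to 164) and Cyp4a14 at 363 (163 to 564) and 164 (66.2 to 262). UDP-glucuronosyltransferases and sulfotransferases were split, 12 higher and 14 lower (-0.01).

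In the synthesis of lipids and bile acids and in fatty acid binding, lower values prevailed and 3 genes fell. Lower values were 21 of 25 in fatty acid and triglyceride synthesis and 11 of 15 in bile acid synthesis. In lipid droplets and fatty acid binding they were 13 of 14. Each of these lists held 1 of the called genes (0.232% of all members were called lower). Cyp8b1 (chr9:121914356-121916305), the sterol 12α-hydroxylase that sets the share of cholic acid, fell from 201 FPKM (95.9 to 306) to 56.3 (31.1 to 81.6), or -1.83, and was at 58.2 (33.2 to 83.2) in Gcn2-/- PBS livers. Cyp7a1, the rate-limiting enzyme of bile acid synthesis, had an interval reaching 0 in both groups, at 124 (0 to 520.4) and 154 (0 to 575). Me1, the malic enzyme that supplies NADPH to lipogenesis, fell from 103 (55.1 to 151) to 36.2 (20.3 to 52.2), or -1.51, just past the limit. Fabp5, a fatty acid binding protein, fell from 102 (53.9 to 149.7) to 32.6 (18.2 to 46.9), or -1.64.

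Fatty acid and cholesterol synthesis leaned the same way gene by gene. Of 25 eligible genes of fatty acid and triglyceride synthesis, 21 had the lower value (median -0.46), and of 25 genes of cholesterol synthesis and SREBP2 targets 23 did (-0.46). Scd1, the stearoyl-CoA desaturase, was at 2172 (0 to 4603) and 470.3 (99.0 to 842), Acss2, which makes cytosolic acetyl-CoA, at 121 (46.1 to 195) and 41.4 (11.7 to 71.1), and Elovl5, a fatty acid elongase, at 194 (93.4 to 294) and 67.4 (35.8 to 98.9), each over the fold limit with overlapping intervals. Fasn, fatty acid synthase, was at 199 (0 to 435) and 87.2 (0 to 175). Of the cholesterol genes, Pmvk was at 64.6 (36.7 to 92.6) and 31.0 (17.3 to 44.7) and Fdps at 201 (109.7 to 292) and 108 (61.8 to 154). The regulators Srebf1 (122 and 119.8) and Srebf2 (11.9 and 11) were near equal. After ASNase the medians of the lists were -1.51 and -1.80. Other lists of lipid and bile handling did not lean at rest: apolipoproteins and lipoprotein handling had 10 higher and 11 lower values (-0.02), and bile salt and organic ion transport 9 and 7 (0.13).

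Mitochondrial and amino acid metabolism showed small shifts with 0 called genes. Fatty acid oxidation and ketogenesis had 25 of 27 lower values (median -0.29), led by Pdk4, the inhibitor of pyruvate dehydrogenase, at 5.88 (2.92 to 8.84) and 1.99 (0.870 to 3.11), and Ehhadh, of peroxisomal β-oxidation, at 169 (85.1 to 253) and 72.4 (39.5 to 105). All 37 oxidative phosphorylation genes were lower (-0.35, from -0.58 to -0.14), while 33 of 37 were higher in Gcn2-/- PBS livers (0.12). Transcript length moved with this result: among protein-coding members whose longest transcript was under 800 nt the median difference was -0.22 with 18.6% higher values (194 genes), against 0.18 and 75.9% at 6000 nt and over (1018 genes), and 20 of the 37 genes were under 1500 nt. The part of length in the result was not tested, and in Gcn2-/- PBS livers the medians of the same length classes were 0.14 and 0.06. Level moved with it as well: protein-coding members with a mean of 100 FPKM or more had a median of -0.14 and 30.3% higher values (824 genes), against 0.07 and 61.2% under 10 FPKM (3687 genes). Of the lists that follow, the urea cycle, amino acid breakdown and glucose lists had medians near that of the former class. The serine, glycine and one-carbon list had a lower one, and the part of level in these lists was not tested. Urea cycle enzymes had 10 of 11 lower values (-0.16), with Ass1, which consumes aspartate, at 2328 (424 to 4232) and 1349 (372 to 2326) and Cps1, the rate-limiting enzyme, at 797 and 791. Serine, glycine and one-carbon enzymes had 12 of 13 lower values (-0.30), amino acid breakdown 28 of 36 (-0.14), and gluconeogenesis and glucose handling 18 of 24 (-0.16), with Pck1 at 1051 and 1317.

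**Figure D4:**
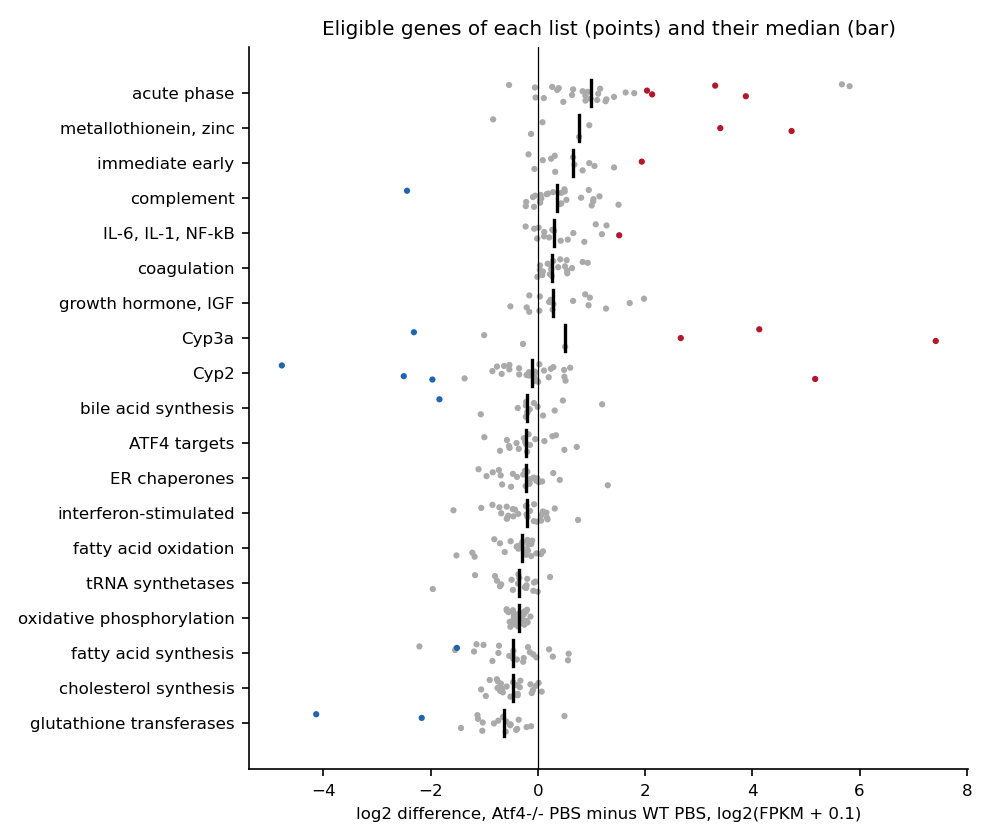
Each point is an eligible gene placed by its log2 difference between Atf4-/- and WT PBS livers, in 19 gene lists, with called genes in red (higher) or blue (lower) and the median of each list as a bar. Medians run from 0.98 for acute phase proteins to -0.62 for glutathione transferases, and the called genes lie mainly in the acute phase, metallothionein, Cyp3a, Cyp2 and glutathione transferase lists.

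Metallothioneins, the small cysteine-rich proteins that bind zinc and copper, were among the most abundant transcripts that rose. Mt1 (chr8:94179082-94180327) rose from 100.4 FPKM (54.3 to 146) to 1063 (522 to 1604), or 3.40, and the adjacent Mt2 (chr8:94172664-94173568) from 27.0 (12.4 to 41.7) to 721 (366 to 1076), or 4.73. Both were also high in Gcn2-/- PBS livers, at 923 (389.8 to 1456) and 306 (125 to 487). After ASNase Mt1 was at 798 (214 to 1383) in WT and 7118 in Atf4-/- livers, and Mt2 at 300.4 (107 to 494) and 5518, of which Mt2 was called. Of the zinc transporters, Slc30a1, which exports zinc and is itself a metal-responsive gene, was at 6.59 (3.76 to 9.41) and 12.9 (7.35 to 18.5), Slc39a14 at 50 (13.6 to 86.4) and 85.3 (13.6 to 157), and Slc39a4 at 31.1 (18.4 to 43.8) and 17.4 (10.1 to 24.7).

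The metallothionein promoters are given because both genes rose together from adjacent positions. The 250 bases before each RefSeq start (GRCm38.p6, plus strand, chr8:94178839-94179088 and chr8:94172368-94172617) are printed 5′ to 3′, with the core of the metal response element in capitals, spelled TGCACNC or TGCGCNC and searched on both strands. Neither spelling contains or is contained in the CARE core. In the full window of 250 bases before and 50 after the start, Mt1 holds 3 matches and Mt2 holds 4, of which 1 and 3 are in the printed stretch. The core is common, in 28.2% of genes of the promoter table and in 12 of 35 called genes, and it was chosen for search after the values had been seen.
Mt1: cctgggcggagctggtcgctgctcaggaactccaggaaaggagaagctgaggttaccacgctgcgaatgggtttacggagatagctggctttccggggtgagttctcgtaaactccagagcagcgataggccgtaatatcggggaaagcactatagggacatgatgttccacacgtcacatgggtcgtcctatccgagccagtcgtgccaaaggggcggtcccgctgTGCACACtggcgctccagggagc
Mt2: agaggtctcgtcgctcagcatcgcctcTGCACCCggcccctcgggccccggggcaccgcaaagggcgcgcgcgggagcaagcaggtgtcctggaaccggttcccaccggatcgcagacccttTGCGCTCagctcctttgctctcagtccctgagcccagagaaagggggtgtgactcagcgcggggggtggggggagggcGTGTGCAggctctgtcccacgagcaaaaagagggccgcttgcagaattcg

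The liver's acute phase proteins, plasma proteins whose synthesis follows IL-6 and IL-1, had the highest median among lists with 5 or more eligible genes. Of 29 eligible genes, 26 had the higher value in Atf4-/- livers, 4 were called higher (0.353% of members were), and the median was 0.98. Lcn2, the siderophore-binding lipocalin, rose from 10.1 FPKM (4.78 to 15.5) to 151 (48.8 to 253), or 3.88. Orm2 (chr4:63362449-63365878) rose from 31.6 (16.1 to 47.0) to 314 (84.1 to 543), or 3.31, and the adjacent Orm3 from 2.41 (0.170 to 4.65) to 10.9 (4.68 to 17.1), or 2.13. These genes encode orosomucoids, and their reads may be divided with the paralog Orm1, which was at 1050.4 (496 to 1605) and 1659 (430.4 to 2888). Lrg1, a leucine-rich glycoprotein of plasma, rose from 132 (74.1 to 189) to 541 (193 to 888), or 2.04.

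Serum amyloid A had larger differences but wider error. Saa1 was at 70.9 (39.3 to 103) in WT and 3622 (0 to 8547) in Atf4-/- livers and Saa2 at 56.9 (31.1 to 82.7) and 3210.2 (0 to 7558), so that the intervals overlapped although the log2 differences were 5.67 and 5.82. An interval from 0 to more than the value itself leaves the level in the 3 mice of this group poorly defined. Fgl1, at 289 (149 to 428) and 1005 (349.5 to 1660), and Hp, haptoglobin, at 1214 (468 to 1960) and 3781 (0 to 8067), were also over the fold limit with overlapping intervals. The negative acute phase protein Ttr was at 5131 (229.9 to 10032) and 3541 (313 to 6769), and Hamp, hepcidin, at 2402 (1170.4 to 3634) and 2314 (1129 to 3499). In Gcn2-/- PBS livers the list's median was 0.80, with Lcn2 at 472 (13.4 to 931), Orm2 at 469.6 and Saa1 at 3784 FPKM. In the ASNase mice 22 of 24 eligible genes had the higher value in Atf4-/- livers (3.79), where Lcn2 was at 8691 and Lrg1 at 1294 against 10.5 and 93.3 in WT.

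Upstream signals of that response were shifted less. Il1r1, the IL-1 receptor, rose from 6.09 FPKM (3.30 to 8.88) to 17.6 (9.50 to 25.8), or 1.52, and the median of 17 eligible IL-6, IL-1 and NF-κB genes was 0.30, with 14 higher values. The median longest transcript of this list was 4149 nt. Protein-coding members whose longest transcript was 3000 to 6000 nt had 59.7% higher values (median 0.06), and the part of length in this list was not tested. Socs3, the feedback inhibitor of IL-6 signalling, was at 3.36 (0 to 9.48) and 7.23 (2.40 to 12.1), Stat3 at 24.2 (3.95 to 44.4) and 44.2 (4.31 to 84.0), and Il1b at 2.11 (0.616 to 3.61) and 4.96 (2.14 to 7.78). Egr1, an immediate early transcription factor, rose from 3.34 (1.72 to 4.95) to 13.1 (6.47 to 19.7), or 1.94, and was at 11.2 (6.05 to 16.3) in Gcn2-/- PBS livers. It was the 1 called gene of 13 eligible immediate early genes (median 0.66), while 0.353% of all members were called higher. Fos was at 1.1 (0.313 to 1.89) and 3.12 (1.12 to 5.13).

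Chemokines parted in direction. Cxcl1, the neutrophil attractant, rose from 2.98 FPKM (0.954 to 5.0) to 17.8 (9.33 to 26.2), or 2.54, whereas Cxcl9, an interferon-γ-induced T cell attractant, fell from 8.99 (5.10 to 12.9) to 2.23 (0.996 to 3.46), or -1.96. Both were called in the same direction after ASNase, at 3.65 and 642 for Cxcl1 and at 3.21 and 0.199 for Cxcl9. Cxcl10 was at 6.04 (0 to 12.7) and 3.58 (0 to 9.35). Of 30 interferon-stimulated genes, 21 had lower values (median -0.21) and 0 were called, with Oasl1 at 7.80 (2.85 to 12.8) and 2.56 (0.0276 to 5.09). In Gcn2-/- PBS livers 24 of 29 were lower than in WT (-0.42). Among genes of antigen presentation, 14 of 20 were lower (-0.13), and H2-Q1, a class I molecule, fell from 8.27 (4.34 to 12.2) to 1.74 (0.626 to 2.85), or -2.19, while its relatives H2-Q4, at 25.1 and 26.1, and H2-Q6, at 14 and 13.7, were near equal.

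Complement and coagulation genes had mostly higher values, and the only call among them, Cfd, went the other way. It was 1 of 26 eligible complement genes, and 0 of 21 coagulation genes were called (0.232% of all members were called lower). Of 26 complement genes 20 were higher (median 0.35), with C8a, of the membrane attack complex, at 154 (44.2 to 264) and 342 (68.1 to 615). Of 21 coagulation genes 20 were higher (0.26), led by the fibrinogen chains, with Fgb at 2579 (501 to 4657) and 4919 (0 to 10470). Cfd, adipsin, which adipocytes make, fell from 10.8 (4.21 to 17.4) to 1.91 (0.434 to 3.39), or -2.44, and was at 0.641 in Gcn2-/- PBS livers. Other adipose markers were also lower: Fabp4 was at 42.4 (23.3 to 61.6) and 18.5 (9.40 to 27.7), and the summed FPKM of the 8 adipose markers was 1787 and 661, most of it from Car3, which hepatocytes express too.

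**Figure D5:**
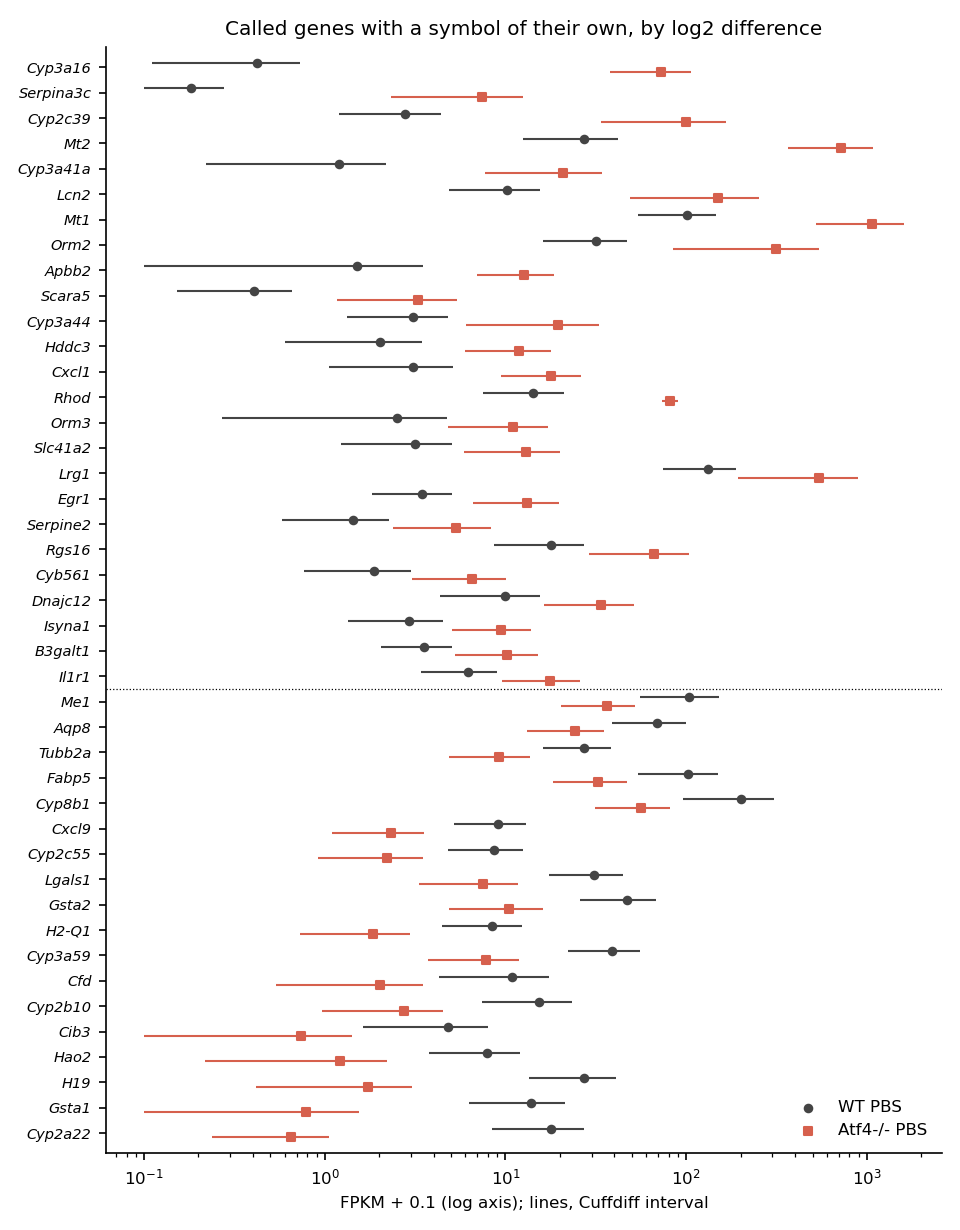
The 43 called genes reported here with a symbol of their own, in order of log2 difference, with FPKM + 0.1 on a log axis in WT PBS (dark circles) and Atf4-/- PBS livers (red squares) and the Cuffdiff interval as a line. The 25 genes above the dotted line were higher in Atf4-/- livers and the 18 below it lower, and the intervals of a gene do not overlap.

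Genes that differ between male and female livers were examined because the groups differed in sex. Xist was at 63.9 FPKM (0 to 189) in WT and 33.9 (0 to 125) in Atf4-/- PBS livers, and the Y-linked Ddx3y at 5.62 (1.64 to 9.60) and 11.4 (5.71 to 17.2), which follows the 1 and 2 males of the labels. Of 16 male-biased genes, 13 had higher values in Atf4-/- PBS livers (median 0.51), among them Mup20 at 1041 (0 to 2203) and 1939.6 (272 to 3608) and Hsd3b5 at 44.3 (13.9 to 74.7) and 105 (48.2 to 162), and 0 were called. Of 19 female-biased genes 10 were higher and 9 lower (0.03), and 4 were called (0.585% of all members were). Cyp3a16, Cyp3a41a and Cyp3a44, already counted in the Cyp3a list, rose. Hao2, a peroxisomal hydroxyacid oxidase, fell from 7.83 (3.67 to 12.0) to 1.11 (0.117 to 2.1), or -2.71. The Atf4-/- PBS group, in which these Cyp3a genes rose, held fewer females, and pooled values do not show which mice carried the rise. In the ASNase groups, where both genotypes had 2 males, Cyp3a16 and Cyp3a41a were called higher and Hao2 lower again, while Cyp3a44 was not called. There all 15 eligible male-biased genes were lower (median -3.62, 11 called), as were 12 of 17 female-biased genes (-3.12, 6 called lower and 2 higher). Of all 9632 genes eligible after ASNase, 5.17% were called lower and 2.57% higher. In Gcn2-/- PBS livers, with 1 male as in WT PBS, 15 of 16 male-biased genes were below WT (-1.43) and 11 of 16 female-biased genes above it (0.16). Sex and genotype cannot be told apart in the PBS groups for genes whose level depends on sex. In the growth hormone axis, which sets these sex differences, 13 of 17 genes were higher (0.28), with Socs2 at 6.61 (2.19 to 11) and 16.1 (5.67 to 26.6), Bcl6, a repressor of female-biased genes, at 4.14 (2.0 to 6.27) and 13.8 (5.82 to 21.8), and 0 called. The median longest transcript of the growth hormone list was 4175 nt, and the part of length in it was not tested.

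Among the other called genes, Serpina3c, a protease inhibitor of the antichymotrypsin cluster, rose from 0.0814 FPKM (0 to 0.178) to 7.32 (2.22 to 12.4), or 5.35. Serpine2, protease nexin 1, rose from 1.33 (0.481 to 2.17) to 5.24 (2.30 to 8.17). Scara5, a scavenger receptor that takes up ferritin, rose from 0.305 (0.0512 to 0.559) to 3.18 (1.07 to 5.30), and Slc41a2, a magnesium transporter, from 3.05 (1.14 to 4.97) to 12.9 (5.78 to 20). In Gcn2-/- PBS livers these 4 genes were at 0.0347, 0.952, 0.831 and 3.42 FPKM, all below the Atf4-/- level. Hddc3, a phosphohydrolase, rose from 1.92 (0.505 to 3.33) to 11.8 (5.87 to 17.7), and was at 1.67 and 12.5 in the WT and Atf4-/- ASNase groups and at 2.05 in Gcn2-/- PBS livers. Apbb2, an adaptor of the amyloid precursor protein, rose from 1.41 (0 to 3.40) to 12.6 (6.84 to 18.4), but was at 5.56 (0 to 55.5) and 3.04 (0.756 to 5.32) after ASNase. Rgs16, a regulator of G protein signalling, rose from 17.8 (8.56 to 27.0) to 66.4 (28.7 to 104) and was at 65.7 in Gcn2-/- PBS and at 95.9 and 39.2 in the ASNase groups.

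Further called genes had smaller rises. Dnajc12, a co-chaperone of aromatic amino acid hydroxylases, rose from 9.81 FPKM (4.26 to 15.4) to 33.7 (16.3 to 51.0), or 1.77. Isyna1, which makes inositol phosphate, rose from 2.81 (1.24 to 4.39) to 9.39 (4.95 to 13.8), Cyb561, an ascorbate-dependent reductase, from 1.78 (0.672 to 2.90) to 6.43 (2.95 to 9.91), and B3galt1, a galactosyltransferase, from 3.43 (1.93 to 4.94) to 10.1 (5.13 to 15). All 4 were called higher after ASNase too, with values of 40.4, 35, 28.8 and 50.1 in Atf4-/- livers. Rhod, a small GTPase, rose from 14.1 (7.38 to 20.9) to 81.5 (73.3 to 89.6), but was at 103 in Gcn2-/- PBS livers and at 137 and 21.4 in the WT and Atf4-/- ASNase groups.

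Of the genes that fell outside the lists above, H19, the imprinted long noncoding RNA, went from 27.2 FPKM (13.5 to 40.9) to 1.63 (0.318 to 2.93), or -3.98. It is also expressed in skeletal muscle, was at 2.26 in Gcn2-/- PBS livers, and was at 46.6 and 2.24 after ASNase. Lgals1, galectin 1 (chr15:78926725-78930465), fell from 30.9 (17.3 to 44.6) to 7.40 (3.23 to 11.6), or -2.05. Aqp8, an aquaporin of the canalicular membrane, fell from 69.0 (38.7 to 99.3) to 24.1 (13.1 to 35), and Cib3, a calcium-binding protein, from 4.74 (1.53 to 7.94) to 0.639 (0 to 1.31). Tubb2a, a β-tubulin, fell from 27.2 (16.1 to 38.4) to 9.16 (4.77 to 13.6), was at 8.91 in Gcn2-/- PBS livers, and was at 12.6 and 15.8 after ASNase.

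Non-hepatocyte RNA differed between the groups and is given beside these results. The 71 eligible striated muscle genes all had lower values in Atf4-/- PBS livers (median -3.0, 47 called lower, 0 higher), and the summed FPKM of the muscle list was 3651 in WT PBS, 937 in Atf4-/- PBS and 904 in Gcn2-/- PBS livers. Ckm, muscle creatine kinase, was at 75.9 (39.3 to 113) and 6.65 (2.73 to 10.6). The summed FPKM of the lung list was 181 and 57.6. Hepatocyte markers were high and near equal, with 12 eligible genes and a median of -0.04, although albumin itself is listed at 0 with a failed status in every group. Kupffer cell markers had the higher value in 10 of 10 genes by small amounts (median 0.18, at most 0.69 for Marco, summed FPKM 347 and 406), and sinusoidal endothelial markers were near equal (0.08). The 10 neutrophil markers summed to 8.31 and 29.7, a difference that came mostly from Prtn3, at 0.504 (0 to 4.48) and 14.1 (0 to 46.2). S100a8 was at 3.87 (0.439 to 7.30) and 7.89 (2.13 to 13.6) and S100a9 at 3.58 (0.604 to 6.56) and 7.07 (2.33 to 11.8). The other markers, Camp, Elane, Ltf, Mmp8, Mpo and Ngp, were at 0.297 or less in both groups, lower in Atf4-/- livers for Camp, Ltf and Mpo, and Ctsg was listed at 0. T and NK cell markers were near 0, with sums of 5.86 and 4.57. The part of these cells in the rise of the acute phase genes and Cxcl1 and in the fall of Cxcl9 was not tested, and in bulk tissue fewer cells of a type and less RNA per cell cannot be told apart.

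Most of the genes called at rest had a difference of the same sign in other mice of the same genotypes. Of the 32 members called higher under PBS, 31 were eligible in the ASNase groups, 26 of them higher in Atf4-/- livers there (52.3% of all members eligible after ASNase were), 21 called higher (2.57% of the 9632 genes eligible after ASNase were) and 3 called lower (5.17%). Of the 21 called lower, 19 were eligible after ASNase, 17 of them lower and 12 called lower (5.17%), with 0 called higher. The median differences of these genes after ASNase were 3.79 and -3.58. The ASNase groups differ in treatment from the PBS groups, so that the counts describe 2 pairs of groups and are not a replicate of the resting comparison. Eligibility after ASNase also required FPKM over 3 in either group. A gene at or below that in 1 group was eligible only through the other, which fixed its sign. Cyp3a16, at 0.464 FPKM in WT ASNase livers, and Hao2, at 0.0174 in Atf4-/- ASNase livers, were such genes. The counts and the shares beside them therefore give no support to the calls at rest.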

How the data were processed

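Liver poly-A RNA of 18 mice was sequenced by the authors as single-end reads and aligned to mm10 with TopHat. Cufflinks, Cuffmerge and Cuffdiff then gave the deposited table of FPKM values, 1 pooled value per gene and group with its interval and status, 4 columns for each of 6 groups. The labels name TopHat and Cuffdiff without versions. No column of values was left outside the map of groups (0). Depth per library is not given by these values, which hold no counts, so the intervals were the measure of precision, and no test across samples was possible.

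Differences were computed as log2(FPKM + 0.1) with Python 3.11.15, pandas 2.3.3 and numpy 2.4.6, and plotted with matplotlib 3.10.9. Of all genes, 38 had a status other than OK in either PBS group and were left out. Genes listed at 0 in either group were described but not called. The script for the calls was tested on simulated data. Symbols and coordinates came from GENCODE release M21 by Ensembl identifier (35446 genes matched), promoter sequences from the RefSeq table on GRCm38.p6, and alignments from Biopython 1.88. Samples were grouped by their labels. The members and the gene lists were chosen with earlier results of these data known. The genes to name were Atf4, the 12 called genes of largest rise and the 12 of largest fall with a symbol of their own, each called gene of a list, and up to 5 further members of each list by level, difference or textbook role; other genes named were picked after their values were seen. A called gene that fell and a few list members are counted but not reported by name here. Alternatives varied the pseudocount, the FPKM limit, the fold limit, the use of the intervals and of zeros, the scaling and the genes set aside.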

Additional observations from a re-analysis of the deposited data

Results flagged for a closer look

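A few genes were called in opposite directions under PBS and ASNase. The difference between the conditions was not tested, since each group has 1 pooled value. Rhod was higher in Atf4-/- livers under PBS (2.52 on the log2 scale) and lower under ASNase (-2.67), with 14.1 and 81.5 FPKM in the WT and Atf4-/- PBS groups, 137 and 21.4 in the corresponding ASNase groups, and 103 and 17.3 in Gcn2-/- livers under PBS and ASNase.

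Among short RNAs, Snora26, a small nucleolar RNA, had differences of 2.69 under PBS and -4.47 under ASNase, with 2.92 (2.02 to 3.82) and 19.4 (17.8 to 21) FPKM under PBS and 22.7 and 0.931 under ASNase. A copy of U1, a spliceosomal small nuclear RNA, had differences of 2.04 and -2.71, at 3.55 and 14.9 under PBS. Short RNAs without a poly-A tail are captured irregularly in poly-A libraries, and the part of capture in these values was not tested.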

How the results depend on the processing

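The 53 calls (32 higher, 21 lower) were recomputed under alternative settings. Without the filter on low values 83 genes were called, 43 of them lower. Without the condition on the intervals 116 were called, 69 higher and 47 lower. With genes listed at 0 included 133 were called, 79 higher and 54 lower, nearly all of the additions not protein coding. Under the other settings the count stayed between 42 (FPKM over 10) and 68 (interval widths combined by their root sum of squares), and median-ratio scaling moved it not at all, with a shift of -0.01. A pseudocount of 1 left 44 calls and lost 9, Isyna1, Cyb561, Il1r1, Serpine2, Aqp8, Me1, B3galt1, Tubb2a and 9130409I23Rik, and setting aside genes whose levels followed muscle genes across the groups lost Cfd. Of 149 recomputed list medians 2 moved by 0.1 or more, both at FPKM over 10, to 1.11 for acute phase proteins and 0.29 for serpins. Among lists with a main median over 0.25 in absolute size 0 changed sign, and sign changes of smaller medians were not counted.

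No paired analysis was possible because each group has 1 pooled value and no value per mouse. Leaving out each mouse in turn was not run for the same lack of values. The intervals, wide for most genes, set the size of difference that was detectable, and genes whose interval reached 0 in both groups are not resolved.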

Other observations

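The 9 called loci without a symbol of their own were mainly processed pseudogenes, Rps13-ps1 and Rpl3-ps1 among them, whose reads may be shared with their parent genes. The others were the small RNAs Snora26 and U1 and the protein-coding 9130409I23Rik. Gm8730 was at 0.108 FPKM (0 to 0.277) in WT PBS and 93.8 (52.9 to 135) in Atf4-/- PBS livers. It was at 139.9 in Atf4-/- ASNase livers and below that of WT PBS in both Gcn2-/- groups. Rpl3-ps1 was at 0.0599 and 16.6 under PBS and at 0.0442 and 55.8 under ASNase, and AL807777.1 at 0.0559 and 35.6 under PBS. Gm5560 went the other way, at 58.4 (57.3 to 59.5) in WT PBS livers and at 0.114 or less in the other 5 groups.

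Sult2a6, a sulfotransferase gene, was listed at 0 in WT PBS and at 4.67 FPKM (1.46 to 7.88) in Atf4-/- PBS livers, and at 0 and 2.48 in the ASNase groups, the only protein-coding gene among 90 members listed at 0 in either PBS group. Sult2a2, a paralog, was at 109 (36.2 to 181) and 37.0 (11.1 to 63.0). Slc3a1, the heavy chain of the cystine transporter, was at 9.87 (3.32 to 16.4) and 43.0 (15 to 70.9), and at 34.1 in Gcn2-/- PBS livers. Retnla, a marker of alternatively activated macrophages and of lung, was at 5.31 (0.880 to 9.74) and 0.558 (0 to 1.24).

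Genes near Atf4 on chromosome 15 were more dispersed than others. Of 155 protein-coding members within 10 Mb of Atf4 on either side, 8 (5.16%) had an absolute log2 difference over 1, against 2.31% of the 8384 elsewhere, and the 90th percentile was 0.73 against 0.50. Lgals1 was the 1 called gene of the 155 in this window, while 0.585% of all 9054 members were called. Between Gcn2-/- and WT PBS livers the percentiles were 0.62 and 0.51, and between the ASNase groups 1.36 and 1.52, where the window was not the more dispersed. These are descriptions without a test.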
